A study of Bos taurus with 9 samples.

Results

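The 2'-5' oligoadenylate synthetases (OAS) were followed by gene symbol in a count table of cells labelled as bovine endometrial epithelial cells. The 5 members were OAS1X, OAS1Y, OAS1Z, OAS2 and OASL, and all 5 were found among the 30641 genes listed. RNA was sequenced from 9 libraries in 3 groups of 3. Untreated control cells received neither reagent nor RNA. Reagent alone cells were exposed to the transfection reagent jetMESSENGER 24 hours after seeding. DPPA3 mRNA cells received jetMESSENGER at that time together with 500 ng of in vitro transcribed DPPA3 mRNA. DPPA3 is a gene of the early embryo and germ line, and its mRNA was given because the submitters found it in vesicles from embryo culture medium. All cells were grown in the same commercial bovine endometrial medium. The labels name no animal, passage or separate culture, so p-values here reflect no more than the spread between libraries, which may be technical. The libraries of the 3 groups are called untreated, reagent and transfected replicates 1 to 3. No group received another mRNA, so the DPPA3 sequence cannot be told apart from the presence of a transfected RNA.

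OAS enzymes bind double-stranded RNA and then join ATP into short chains with 2'-5' bonds, called 2-5A. The chains act as a second messenger of antiviral defence. OAS genes are induced by interferon. In the ruminant uterus they are known as genes that respond to interferon tau, the pregnancy signal of the conceptus. OAS1X, OAS1Y and OAS1Z are bovine copies of the single-unit OAS1 synthetase. OAS2 is a larger synthetase with a duplicated catalytic unit, and OASL is a relative with ubiquitin-like domains at its end. All 5 symbols matched the RefSeq genes of ARS-UCD2.0, where OAS2, OAS1Y, OAS1X and OAS1Z lie next to each other in that order, between SLC8B1 and RPH3A. OASL lies elsewhere on the same chromosome. The spans of OAS2 and OAS1Y overlap there. The genome build and strand setting of the counting were not given in the sources used here. No coordinates are printed for that reason. Reads in such an overlap, or shared by the OAS1 copies, may have been split or dropped in counting. The value of each single copy is therefore uncertain.

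The total counts ran from 3890134 in reagent replicate 1 to 13258036 in transfected replicate 1. The transfected replicates 1, 2 and 3 held 126334, 213790 and 213192 reads of DPPA3, against 0 to 2 counts in each of the other 6 libraries. Keratin genes of epithelia were abundant (KRT8 at 3802 to 4995 CPM, read counts scaled to the size of each library). EPCAM, another epithelial marker, stayed under 1 CPM in every library, while CDH1, the epithelial cadherin, ran from 37.6 to 58.7 CPM. Most stromal markers were abundant too. The collagen genes COL1A1, COL1A2 and COL3A1 stood at 8085 to 18918, 11063 to 16021 and 6031 to 10226 CPM. The filament gene VIM stood at 1321 to 1725 CPM and DCN at 89.3 to 260 CPM. PDGFRA, another stromal marker, was lower, at 26.9 to 44.6 CPM. Thus keratins and CDH1 were present and EPCAM was nearly absent, while the collagen genes and VIM were high in every library. Of 6 immune markers, PTPRC, MS4A1 and ITGAM had 0 counts in all 9 libraries. The summed level of the 6 was 2.49 to 6.88 CPM with DPPA3 mRNA, 2.99 to 5.30 CPM in the reagent group and 2.74 to 7.25 CPM without treatment.

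In the transfected cells OAS1Y and OAS1X had the most reads of the family, OAS1Z and OAS2 few, and OASL none. Transcript lengths were not used here, so reads are compared between genes and levels are not. OAS1Y averaged 116 ± 122 CPM with DPPA3 mRNA, where the reagent group averaged 12.3 ± 6.09 CPM and the untreated group 11.9 ± 2.61 CPM (SD, n = 3). OAS1X averaged 35.2 ± 43.8, 0.62 ± 0.51 and 2.84 ± 2.15 CPM in the same order. The SD of both genes with DPPA3 mRNA exceeded the mean, since the 3 transfected libraries differed widely. Of the 5 members, 2 had enough reads to be tested. The main edgeR fit called 0 of them (adjusted p under 0.05) in each comparison of groups. That fit called few genes of any kind. Of 14874 genes tested, 1 was called for DPPA3 mRNA over reagent alone, and it was DPPA3 itself. With untreated cells as the reference 2 were called, DPPA3 among them, and between reagent and untreated cells 0 were called. DESeq2's Wald test called OAS1X over reagent alone (adjusted p 0.018), among 9 of 20059 genes. In bulk RNA a change in the share of cells that carry a transcript and a change in the RNA per cell cannot be told apart.

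**Figure D1:**
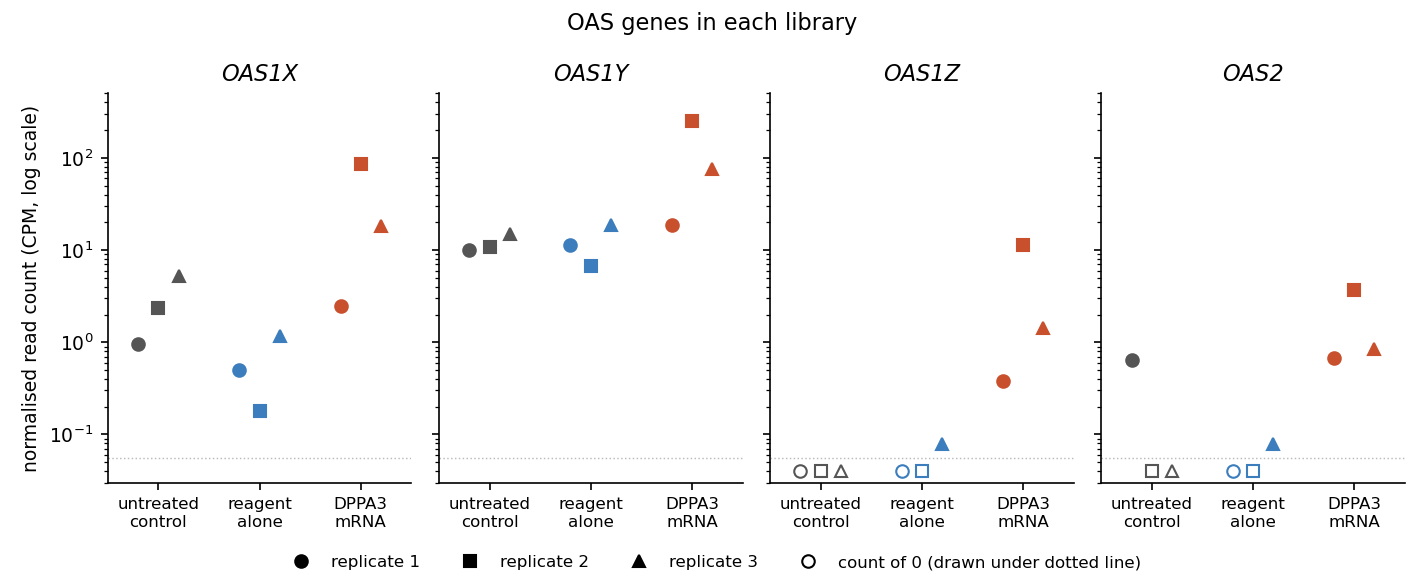
Normalised read count (CPM, log scale) of OAS1X, OAS1Y, OAS1Z and OAS2 in each of the 9 libraries, by group. Each point is 1 library, its shape gives the replicate number, and open points under the dotted line are counts of 0. transfected replicate 2 is the highest library in every panel, from 3.70 CPM for OAS2 to 253 CPM for OAS1Y.

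OAS1Y supplied most reads of the family in every library, from 71.7% in transfected replicate 2 to 97.4% in reagent replicate 2. It had 62, 100 and 152 counts in untreated replicates 1, 2 and 3, which were 9.99, 10.8 and 14.9 CPM. Reagent alone replicates 1, 2 and 3 had 46, 74 and 238 counts, or 11.5, 6.65 and 18.7 CPM. transfected replicates 1, 2 and 3 had 246, 2799 and 898 counts, or 18.5, 253 and 76.2 CPM. Replicates 2 and 3 of the transfected group were 13.5 and 4.07 times the highest of the 6 other libraries, whereas replicate 1 was level with reagent replicate 3 (0.99 times). Thus the transfected libraries lay above all untreated controls but overlapped with reagent alone by 1 library.

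OAS1X had fewer reads, and its 2 lowest values were those of reagent replicates 1 and 2. It had 6, 22 and 53 counts in untreated replicates 1, 2 and 3 (0.97, 2.38 and 5.18 CPM). Reagent alone replicates 1, 2 and 3 had 2, 2 and 15 counts (0.50, 0.18 and 1.18 CPM). transfected replicates 1, 2 and 3 had 33, 941 and 214 counts (2.49, 85.0 and 18.2 CPM). All 3 transfected values exceeded all 3 reagent values, but transfected replicate 1 fell within the range of the untreated controls. Relative to the mean of reagent alone the 3 transfected libraries stood at 4.01, 137 and 29.3 times, and relative to the untreated mean at 0.87, 29.9 and 6.39 times.

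OAS1Z was close to silent outside the transfected cells. It had 0 counts in each untreated control, 0, 0 and 1 counts in reagent replicates 1, 2 and 3, and 5, 125 and 17 counts in transfected replicates 1, 2 and 3 (0.38, 11.3 and 1.44 CPM). A total of 0 counts over the untreated group allows a level of up to 0.117 CPM, taking 3 counts over the group as the floor. Against that floor the pooled level of the transfected group, 4.07 CPM, was at least 34.8-fold higher. Against reagent alone the ratio of pooled levels was 113, with an exact 95% interval of 20.0 to 4507 that covers counting error only and rests on 1 read in the lower group. Transfected replicate 2 supplied 125 of the 147 transfected reads. Without it the pooled level was 0.878 CPM, at least 7.52-fold above the untreated floor and 24.5 times reagent alone (3.95 to 1009). Without reagent replicate 3, which held the single read, the pooled level with all transfected libraries was at least 20.6-fold above the floor of the reagent group. Leaving out transfected replicate 1 gave at least 53.2-fold against untreated cells and a ratio of 173 against reagent alone. Leaving out untreated replicate 2 or 3 lowered the bound to 22.3-fold or 21.0-fold through the shallower floor, and leaving out reagent replicate 2 gave a ratio of 68.0.

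OAS2 had few reads in any group. It had 4, 0 and 0 counts in untreated replicates 1, 2 and 3, 0, 0 and 1 in reagent replicates 1, 2 and 3, and 9, 41 and 10 in transfected replicates 1, 2 and 3. The transfected libraries measured 0.68, 3.70 and 0.85 CPM, above every other library, of which untreated replicate 1 was the nearest at 0.64 CPM. The ratio of pooled levels was 46.3 against reagent alone (exact 95% counting interval 7.99 to 1857) and 10.7 against untreated control (3.95 to 40.4). Of the 60 transfected reads 41 came from replicate 2, and without it the ratios were 21.1 (3.36 to 878) and 4.87 (1.62 to 19.7). All 4 untreated reads came from replicate 1, and without it the transfected group was at least 10.8-fold above the untreated floor of 3 counts. Without untreated replicate 2 or 3 the ratio was 6.82 or 6.41. Without reagent replicate 2 the ratio to reagent alone was 27.8, and without reagent replicate 3, which held the only read, the level was at least 8.39-fold above the floor. OASL had 0 counts in all 9 libraries. By the same floor this allows a level of up to 0.117 CPM in the untreated, 0.108 CPM in the reagent and 0.0831 CPM in the transfected group.

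For OAS1Z and OAS2 the groups were also compared by exact two-sided permutation tests of the CPM values. Each exact test of the transfected group, against either other group, gave p = 0.1, the smallest that 3 libraries against 3 allow (adjusted p 0.15 over 9 such tests). Between the reagent and untreated groups the exact p was 1 for both genes. This permutation test therefore cannot reach the threshold with 3 libraries a group.

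Setting DPPA3 mRNA beside reagent alone asks what the mRNA added where all cells met the reagent. OAS1X had a log2 fold change of 5.70 (SE 1.13) and OAS1Y of 3.22 (SE 0.69). In the quasi-likelihood fit of edgeR the adjusted p (Benjamini-Hochberg, over 14874 genes) was 0.47 for OAS1X and 0.59 for OAS1Y, so 0 of 2 tested members were called, where 0.00672% of all genes tested were called. The unadjusted p was 2.2e-04 for OAS1X and 4.2e-04 for OAS1Y. An unadjusted p under 0.05 with a higher level was found for both members and for 1.27% of all genes. The groups did not overlap for OAS1X, nor for OAS1Z and OAS2, which were too low to be tested. Among all genes tested, 4.91% lay wholly above reagent alone. Ribosomal RNA took 1.005% to 1.10% of counts with DPPA3 mRNA and 0.93% to 0.99% with reagent alone, ranges that do not overlap, and its part in the result was not tested. DESeq2's Wald test called OAS1X (log2 fold change 5.80, adjusted p 0.018), where it called 0.0449% of genes. It did not call OAS1Y (adjusted p 0.24), nor OAS1Z and OAS2, which it also tested.

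The size of these differences depended on single transfected libraries. Without transfected replicate 2 the log2 fold change was 3.95 for OAS1X and 1.94 for OAS1Y. Without transfected replicate 1 it was 6.24 and 3.73. By edgeR OAS1X and OAS1Y were then called (adjusted p 0.0096 for each), where 0.13% of all genes, 20 of 15337, were called. OAS1Z passed the filter in that fit only through its transfected libraries, the group where it was high. It was not called (edgeR adjusted p 0.090). The adjusted p spanned 4.6e-17 to 0.99998 for OAS1X and 8.9e-16 to 0.99998 for OAS1Y across the alternatives. The smallest values came from the fit with no filter on low counts, which called 0.297% of 22229 genes, among them OAS1X, OAS1Y and OAS1Z. The direction was the same in all 15 alternatives for both genes.

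**Figure D2:**
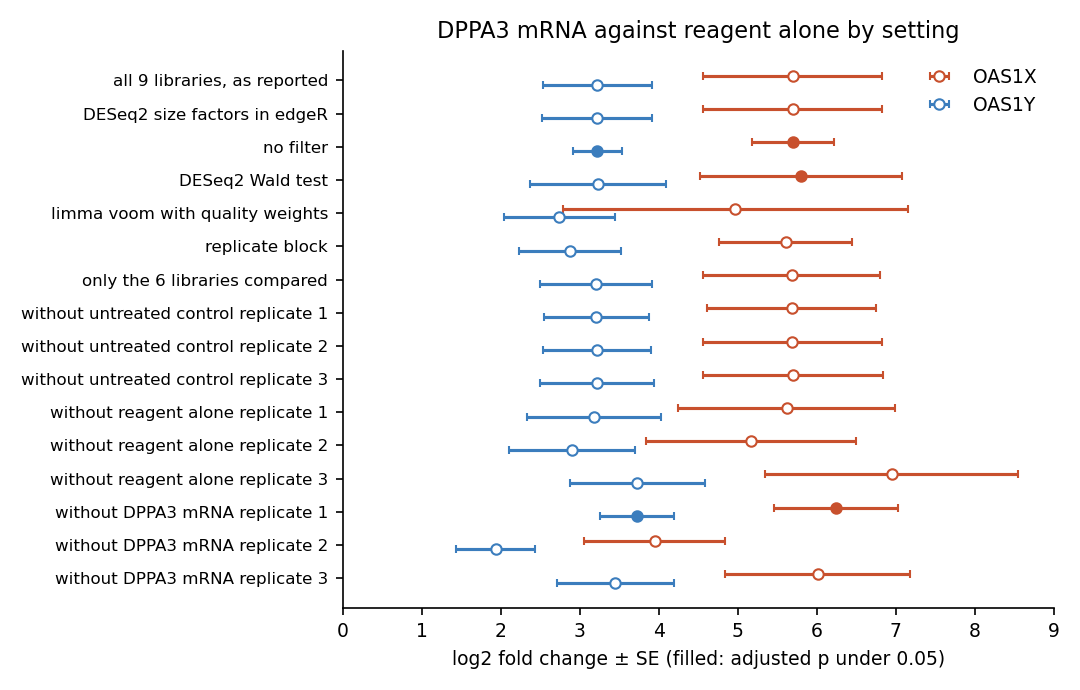
Log2 fold change of OAS1X (orange) and OAS1Y (blue) for DPPA3 mRNA against reagent alone, with SE bars, as reported and under each alternative. Filled points had an adjusted p under 0.05. The lowest value of each gene, 3.95 and 1.94, came without transfected replicate 2.

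Against untreated control, which measures reagent and mRNA together, the 2 tested members gave values of like size to each other. The log2 fold change was 3.56 (SE 0.94) for OAS1X and 3.27 (SE 0.69) for OAS1Y. By edgeR the adjusted p was 0.85 and 0.38, so 0 of 2 members were called, where 0.0134% of all genes were. Both members had an unadjusted p under 0.05 with a higher level, as did 2.09% of all genes. The groups did not overlap for OAS1Y, 1 of 2 tested members, where 4.24% of the genes tested lay wholly above untreated control. They did not overlap for OAS1Z and OAS2 either, which were too low to be tested and lie outside that share. For OAS2 the gap was narrow, from 0.68 CPM (9 reads) in transfected replicate 1 to 0.64 CPM (4 reads) in untreated replicate 1. Without transfected replicate 2 the log2 fold change was 1.81 for OAS1X and 1.99 for OAS1Y. Without transfected replicate 1 it was 4.12 and 3.78, and edgeR called OAS1X and OAS1Y (adjusted p 0.027 and 0.0062). Over the alternatives their adjusted p spanned 9.7e-11 to 0.9998 and 2.4e-16 to 0.998. Without transfected replicate 1 OAS1Z passed the filter, again only through its transfected libraries, and was not called (edgeR adjusted p 0.064). Without that library 0.17% of all genes, 26 of 15337, were called. With no filter 0.31% of genes were called, OAS1X, OAS1Y and OAS1Z among them. The share of ribosomal RNA also differed here, at 1.005% to 1.10% of counts with DPPA3 mRNA and 1.14% to 1.56% in untreated cells, and its part in the result was not tested.

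The effect of the reagent itself was measured by reagent alone against untreated control. OAS1Y had a log2 fold change of 0.05 (SE 0.68) and OAS1X of -2.14 (SE 1.20). The edgeR adjusted p was 0.98 and 0.47, so 0 of 2 members were called, as were 0% of all genes tested. Both comparisons of DPPA3 mRNA and this one share libraries, so their values are given side by side and are not separate evidence. For OAS1X the untreated mean was 2.84 CPM and the reagent alone mean 0.62 CPM, so its log2 fold change was larger against reagent alone (5.70) than against untreated control (3.56). For OAS1Y the means of those groups were 11.9 and 12.3 CPM. Without untreated replicate 3 the log2 fold change of OAS1X between these groups was -1.38, and without reagent replicate 3 it was -3.39. Ribosomal RNA took 0.93% to 0.99% of counts with reagent alone, under the untreated range, and its part was not tested.

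The 2 copies with the most reads did not keep a fixed ratio. OAS1X made up 8.82%, 18.0% and 25.9% of the reads of OAS1X and OAS1Y together in untreated replicates 1, 2 and 3. With reagent alone it made up 4.17%, 2.63% and 5.93%, and with DPPA3 mRNA 11.8%, 25.2% and 19.2%. Every reagent alone library had a lower share than every other library, while the untreated and transfected groups overlapped. The exact 95% binomial intervals show the depth behind these shares. The interval was 0.51% to 14.3% in reagent replicate 1, with 48 reads, and 23.8% to 26.6% in transfected replicate 2, with 3740 reads. Each reagent interval overlapped those of untreated replicate 1 (3.31% to 18.2%) and transfected replicate 1 (8.28% to 16.2%). The mean share was 18.7% ± 6.68 in the transfected, 4.24% ± 1.65 in the reagent and 17.6% ± 8.52 in the untreated group (SD, n = 3). Exact two-sided permutation tests gave p = 0.1 for reagent alone against either other group, the smallest possible, and p = 0.8 for DPPA3 mRNA against untreated control (adjusted p 0.15 and 1). A share depends on how reads common to both copies were assigned.

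**Figure D3:**
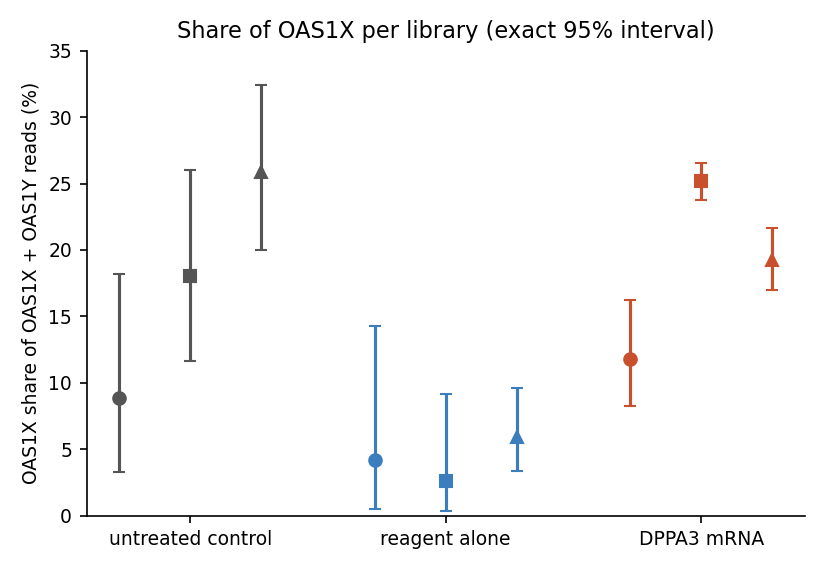
Share of OAS1X among the reads of OAS1X and OAS1Y in each library (percent), with exact 95% binomial intervals for counting error. Circles, squares and triangles are replicates 1, 2 and 3. The 3 reagent alone libraries sit at 2.63% to 5.93%, under the 6 other libraries.

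The transfected libraries kept the same order for 4 members, with replicate 2 highest, replicate 3 next and replicate 1 lowest. Replicate 2 exceeded replicate 1 by 34.2 times for OAS1X (exact 95% counting interval 24.2 to 49.9) and by 13.6 times for OAS1Y (12.0 to 15.6). The ratio was 29.9 for OAS1Z (12.5 to 93.8) and 5.46 for OAS2 (2.61 to 12.8). Thus OAS1X varied more between these libraries than OAS1Y by more than counting error. The same ratio for DPPA3 itself was 2.03. Replicates 2 and 3 had DPPA3 levels of 19312 and 18096 CPM (ratio 1.07). Between them OAS1X differed by 4.68 times (4.03 to 5.45) and OAS1Y by 3.32 times (3.08 to 3.58). The part of the DPPA3 level in this spread was not tested. For OAS2 replicates 3 and 1 did not differ beyond counting error (ratio 1.25, 0.46 to 3.48).

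Other genes linked to 2-5A and its enzymes had smaller log2 fold changes than the synthetases. ABCE1, a ribosome recycling factor, had a log2 fold change of -0.28 (SE 0.32) against reagent alone. PDE12 and AKAP7, which can degrade 2-5A, had 0.20 (SE 0.27) and 0.31 (SE 0.38). Their edgeR adjusted p was 0.9998 in each case. CGAS is a structural relative of the synthetases that responds to DNA and makes another messenger, so it stands outside the 2-5A pathway. It had the largest value of the 4, at 1.01 (SE 0.40). CGAS measured 8.14, 24.4 and 8.23 CPM in transfected replicates 1, 2 and 3, so replicate 2 alone stood above the highest reagent alone library at 8.35 CPM.

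Of these 4 listed genes 0 were called in any comparison by edgeR. The median log2 fold change of the 4 against reagent alone was 0.26, beside 0.0027 over all genes tested. Of the 4, 1, the relative CGAS, had an unadjusted p under 0.05 with a higher level, while 0 of the other 3 did. Among all genes the share was 1.27%. Against untreated control the median was 0.50, beside 0.0017. CGAS was again the 1 gene of 4 with an unadjusted p under 0.05 and a higher level, beside 2.09% of all genes. The transfected libraries of CGAS lay above all untreated controls, which measured 6.55 to 7.09 CPM, as did those of 4.24% of all genes tested.

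**Figure D4:**
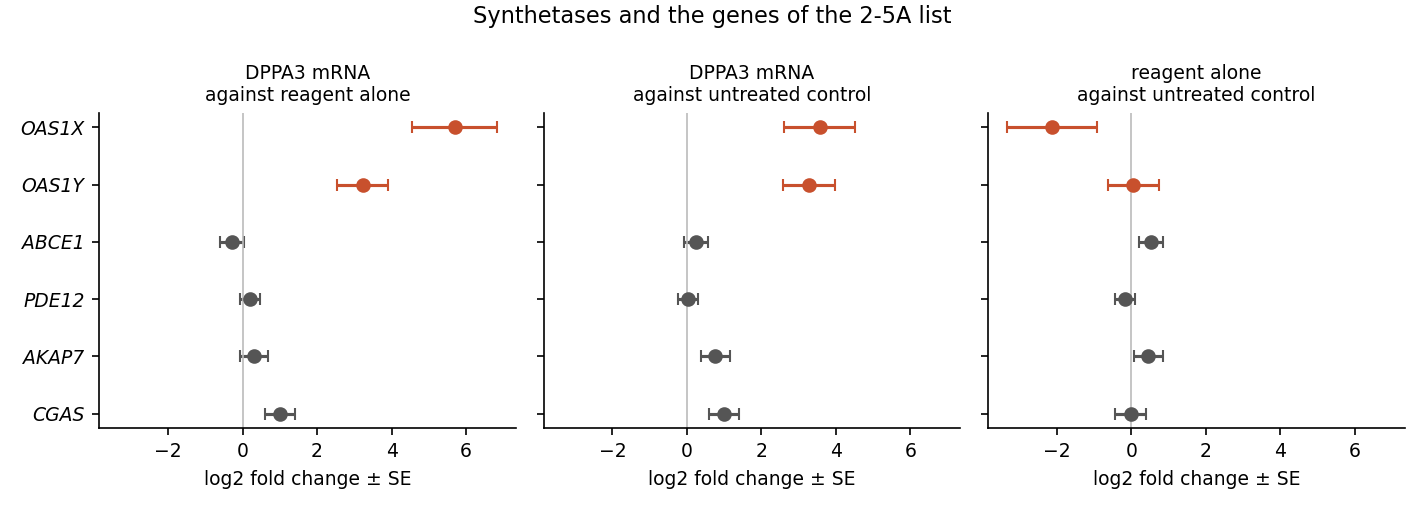
Log2 fold change with SE bars for the 2 tested synthetases (orange) and the 4 genes of the 2-5A list, CGAS included (grey) in the 3 comparisons. The synthetases lie between 3.22 and 5.70 in both comparisons of DPPA3 mRNA, and the listed genes between -0.28 and 1.01 against reagent alone.

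Among 10 other genes for proteins that bind or sense double-stranded RNA, or signal from its sensors, 0 were called against reagent alone. The share called among all genes tested was 0.00672%. Of the 10, 6 had an unadjusted p under 0.05 with a higher level, beside 1.27% of all genes. The list's median log2 fold change was 0.95. The 3 with the smallest p were ZBP1, a sensor of left-handed nucleic acids (log2 fold change 4.43, SE 0.98), DHX58, a regulator of RIG-I-like sensing (2.33, SE 0.53), and DDX58, the sensor RIG-I (2.07, SE 0.61). Their edgeR adjusted p was 0.62, 0.62 and 0.9998. ZBP1 measured 5.43, 155 and 14.6 CPM in transfected replicates 1, 2 and 3, where the reagent replicates had 3.24, 1.62 and 3.39 CPM, with the same order of transfected libraries as the OAS genes. MAVS and STAU1 had log2 fold changes of -0.10 and -0.11.

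Of 13 genes of interferon reception and signalling 0 were called against reagent alone, beside 0.00672% of all genes tested. An unadjusted p under 0.05 was found for 5, all with a higher level, beside 1.27% of all genes. The median log2 fold change was 0.13. The smallest p values belonged to USP18, a brake on interferon receptor signalling (3.02, SE 0.78), IRF9, the DNA-binding part of the complex that drives interferon-stimulated genes (1.17, SE 0.32), and IRF1, another interferon-responsive factor (0.82, SE 0.26). The edgeR adjusted p was 0.9998 for all 3. STAT2, a partner of IRF9, had 0.38 (SE 0.17). The receptor chains IFNAR1 and IFNAR2 had -0.23 (SE 0.27) and -0.38 (SE 0.24).

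**Figure D5:**
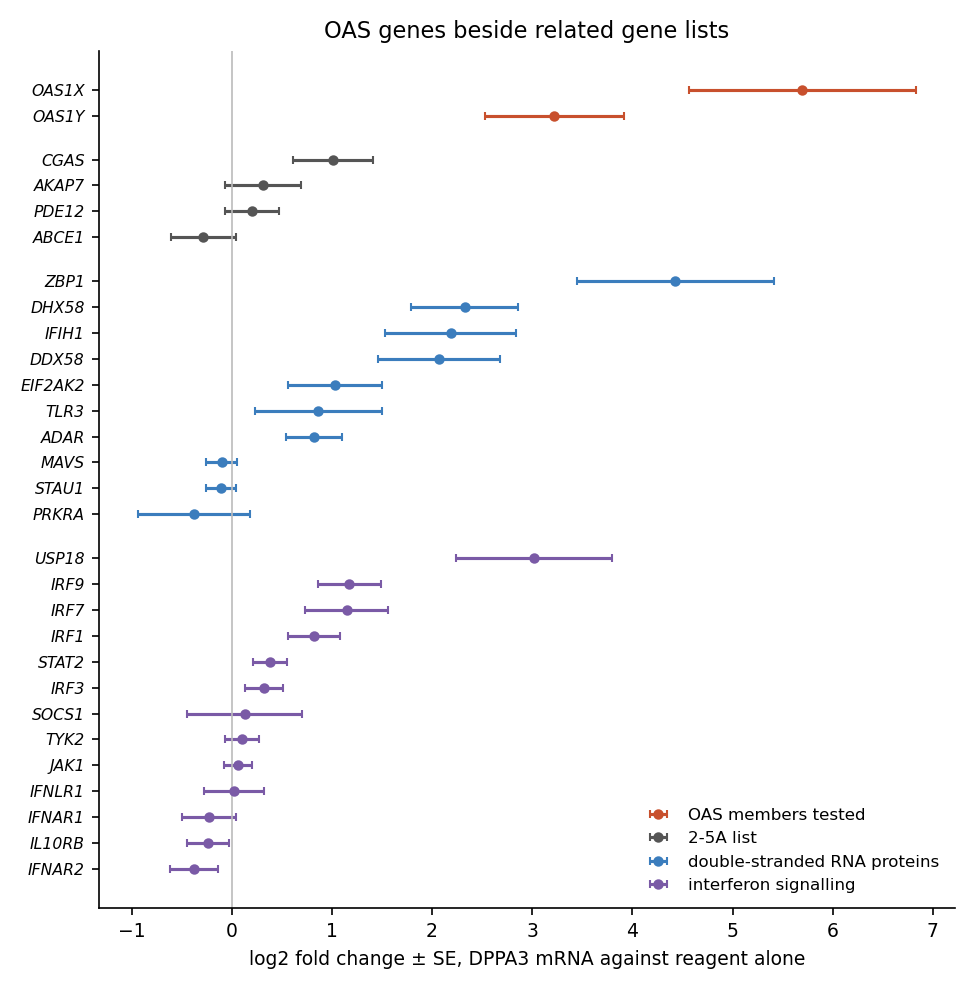
Log2 fold change with SE bars for DPPA3 mRNA against reagent alone, for the 2 tested OAS members and 3 lists of related genes, ordered by value within each list. OAS1X has the highest value plotted, 5.70, followed by ZBP1 at 4.43 and OAS1Y at 3.22.

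The patterns most like each tested member were sought over the 9 libraries by Pearson correlation of log2 CPM among 14155 other genes with a mean of at least 1 CPM. For OAS1Y they were IFI27 (r = 0.98), MX1 (0.97), LOC509283 (0.97), IFI6 (0.96) and ZBP1 (0.96). OAS1X ranked 17th of all genes for OAS1Y, at 0.94. For OAS1X the highest were OAS1Y (0.94), LOC509283 (0.92), IFI6 (0.92), TRIM14 (0.92) and TNFSF10 (0.90). The points share the same libraries and the same high value in transfected replicate 2, and the genes were picked as the highest of many, so these correlations are descriptions. IFI27, an interferon-induced mitochondrial protein, measured 14.4, 217 and 68.6 CPM in transfected replicates 1, 2 and 3, close to the OAS1Y values of 18.5, 253 and 76.2 CPM in order and spacing. TNFSF10, a death receptor ligand, was like OAS1X in its low values with reagent alone, at 0, 0.18 and 0.16 CPM. In untreated replicates 1, 2 and 3 it had 1.45, 0.32 and 0.68 CPM. These rest on few reads, with counts of 0, 2 and 2 against 9, 3 and 7. Within the untreated group the 2 genes differed, since OAS1X was lowest in replicate 1, where TNFSF10 was highest.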

How the data were processed

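The authors deposited raw read counts per gene symbol. Trimmomatic, HISAT2, HTSeq and edgeR are named in the submitters' processing notes. Their roles and versions, the build, the annotation and the strand setting were not given in the sources used here. Libraries came from total RNA (TRIzol, DNase, IDT xGen kit), per the labels. Counts were filtered with filterByExpr (minimum count 10), which kept 14874 of 30641 genes, scaled with TMM factors and fitted with edgeR 4.0.16 in R 4.3.3 over all 3 groups. A call needed an adjusted p (Benjamini-Hochberg, every tested gene) under 0.05. OAS1X reached the filter's 0.910 CPM in 6 libraries (3 outside the transfected group) and OAS1Y in 9. OAS1Z reached it in 2 and OAS2 in 1, all transfected, and neither passed. Standard errors are the log2 fold change over the square root of F. Replicates of a group differed beyond sampling noise (chi-square per degree of freedom at least 13.5). The largest values, 63.6 and 50.1, were those of untreated replicate 1 with untreated replicates 2 and 3. That library also had the lowest TMM factor, 0.856. Scripts were tested on simulated data.

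Members and lists were chosen with earlier results of these data known. Named were all members, the genes of the 2-5A list, the 3 smallest p of the other lists and the 5 likest genes per member; MAVS, STAU1, STAT2, IFNAR1, IFNAR2, SLC8B1 and RPH3A were named after their values were seen. Of the lists as chosen, 3 genes are not reported here. Alternatives were DESeq2 1.42.0 (size factors; Wald test), no filter, limma 3.58.1 voom, only the groups compared, a replicate block, single libraries left out, and the OAS1 copies summed. Equal replicate numbers of DPPA3 mRNA and untreated control correlated in their deviations at 0.34, 0.32 and 0.12, all over 0.1. On that ground alone, and not from the labels, they were taken as possible pairs. The main fit did not use this pairing.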

Additional observations from a re-analysis of the deposited data

How the results depend on the processing

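The report calls 0 members in each comparison. Against reagent alone the count was 3 with no filter (OAS1X, OAS1Y and OAS1Z, where 66 of 22229 genes were called), 1 with DESeq2's Wald test (OAS1X, among 9 of 20059 genes) and 0 to 2 on leaving out 1 library, the 2 without DPPA3 mRNA replicate 1 (20 of 15337 genes). Against untreated control it was 3 with no filter (the same 3 genes, among 69 of 22229) and 0 to 2 without single libraries, again 2 without DPPA3 mRNA replicate 1 (26 of 15337). The cause was not tested. With no filter OAS2 was tested too and was not called (edgeR adjusted p 0.17 and 0.86). OAS1Z passed the filter without any single untreated or reagent library, and without DPPA3 mRNA replicate 1. In each case it passed only through its transfected libraries, the group where it was high. OAS1Z was called in none of these fits. Between reagent alone and untreated control the count was 0 in all 16 alternatives, and from 0 to 0 without single libraries. With the replicate block, fitted over all 3 groups, 0 members were called in each comparison. OAS1X then had a log2 fold change of 5.61 and an edgeR adjusted p of 0.058 against reagent alone. Against untreated control, where equal numbers may mark pairs, these values were 3.20 and 0.30. The block changed no call of a member. For DPPA3 mRNA with reagent alone, equal numbers correlated at 0.14, 0.12 and 0.086, while those of the reagent and untreated groups correlated at 0.15, 0.14 and 0.093, not all over 0.1. Summed to 1 feature, the OAS1 copies had a log2 fold change of 3.57 (SE 0.75, edgeR adjusted p 0.60) over reagent alone, 3.38 (0.74, 0.44) over untreated cells, and -0.19 (0.72, 0.92) between those 2 groups. OAS1Y for reagent alone against untreated control changed sign, to -0.34 with limma voom and from -0.46 to 0.37 without single libraries (-0.036, -0.017 and -0.46 without untreated control replicates 1 and 2 and reagent alone replicate 3). Low counts limit OAS1X in reagent alone, where 2 of 3 libraries held 2 reads, and OAS1Z, OAS2 and OASL throughout. Of those reagent libraries replicate 1 was shallow (3890134 reads in total) and replicate 2 was not (10985010). Leaving single libraries out of the pooled levels of OAS1Z and OAS2 was chosen after seeing the data.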

Other observations

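The genes on either side of the OAS cluster in the RefSeq order, SLC8B1 (a mitochondrial sodium and calcium exchanger) and RPH3A (a vesicle protein), were named after their values were seen. SLC8B1 had a log2 fold change of 0.19 (SE 0.20) for DPPA3 mRNA against reagent alone and -0.18 (SE 0.20) against untreated control. RPH3A had -0.37 (SE 0.65) and -0.47 (SE 0.64). DPPA3 mRNA replicate 2 was not the highest library for either gene. SLC8B1 peaked in untreated control replicate 3 at 53.8 CPM and RPH3A in reagent alone replicate 1 at 18.4 CPM.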
